A study of Rattus norvegicus with 4 samples.

Results

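Hemoglobin, heme and iron handling genes were followed in colon tissue of rats with and without mesenchymal stem cell transplantation (MSCT). The group holds 10 genes chosen by symbol, of which 9 (Hbb, Alas2, Alas1, Tf, Fth1, Ftl1, Slc11a2, Slc40a1 and Heph) had 1 row each with a value on all 4 arrays, out of 18350 such rows. Tfrc, which encodes the transferrin receptor, had no row matched by its RefSeq accession and was not analysed here. Total RNA came from male Sprague Dawley rats, 2 of them controls and 2 given MSCT, and each rat was measured on its own one-color NimbleGen array. In the MSCT group, colitis had been induced by instilling 2,4,6-trinitrobenzene sulfonic acid (TNBS) in ethanol into the colon, and commercially obtained MSCs labeled with green fluorescent protein were given through the tail vein afterwards. The control rats received no MSCs; the sample descriptions call them normal and the design text calls them IBD (inflammatory bowel disease) controls, so transplantation and colitis cannot be told apart as sources of a difference between the groups. The age of the rats was not given, and day 14 and day 28 are both named in the sources for the chips.

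Hemoglobin binds oxygen with heme, an iron-containing ring whose synthesis starts with the enzymes ALAS1 in most tissues and ALAS2 in developing red cells. In the gut, DMT1 (Slc11a2) brings ferrous iron into epithelial cells, ferritin (Fth1 and Ftl1) stores it, ferroportin (Slc40a1) lets it out, hephaestin (Heph) oxidizes it at the basolateral side, and transferrin (Tf) carries it in plasma. Macrophages that take up old red cells return their iron through ferroportin. The colon absorbs far less iron than the duodenum but expresses the same transport genes.

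Among the 9 measured genes, Hbb stood apart: it was higher on both MSCT arrays, 2.27-fold on average, and its α-globin partners Hba-a1 and Hba-a2 were higher by 1.84-fold and 1.99-fold. For the members of heme synthesis, iron transport and iron storage the 95% intervals all held 0, with differences from -0.41 (Slc40a1) to 0.66 (Alas2) on the log2 scale. By limma, a linear model that shares the variance over all rows, 1 of 9 members had an unadjusted p under 0.05, beside 12% of all rows, so the count was close to that background; by the methods' t-test it was again 1 of 9, beside 9.66%. The screen named in the study's methods asks for p under 0.05 (unadjusted) and a fold change over 2, and it was passed by 1 of 9 members (Hbb), beside 4.63% of all rows, or 2.11% when the methods' t-test gave the p. No row of the table passed an adjusted p of 0.05 in this fit (0 of 18350, with 2196 at an unadjusted p under 0.05 in limma and 1772 in the methods' t-test, with 0 after adjustment there too). With 2 rats a group, the smallest two-sided p that an exact permutation allows is 0.333, and every limma p therefore leans on the variance shared over rows.

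Hbb and the α-globin genes encode the chains of 1 protein and were all higher in the MSCT group, so the sequence just before their start sites is shown. The windows are 150 bases upstream of the RefSeq gene start, on the minus strand of assembly GRCr8, positions are counted back from the start, and capitals mark CCAAT (either strand), CACACCC (either strand) and ATAAA (either strand). The window of Hbb is chr1:167663722-167663871, that of Hba-a1 chr10:15842581-15842730 and that of Hba-a2 chr10:15829139-15829288.
Hbb: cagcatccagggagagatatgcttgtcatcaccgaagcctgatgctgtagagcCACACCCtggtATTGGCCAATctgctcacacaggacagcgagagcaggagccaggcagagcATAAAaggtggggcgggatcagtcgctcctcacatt
Hba-a1: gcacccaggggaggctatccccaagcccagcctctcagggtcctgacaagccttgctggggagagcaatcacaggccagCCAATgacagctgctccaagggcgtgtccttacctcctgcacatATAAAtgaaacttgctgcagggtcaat
Hba-a2: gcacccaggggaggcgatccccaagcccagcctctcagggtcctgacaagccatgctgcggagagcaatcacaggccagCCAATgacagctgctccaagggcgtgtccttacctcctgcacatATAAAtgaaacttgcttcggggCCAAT
The Hbb window holds CACACCC at -97, both orientations of CCAAT side by side at -86 and -81, and ATAAA at -36. The α-globin windows hold CCAAT at -71 and ATAAA at -27, Hba-a2 has a further CCAAT at -5, and neither holds CACACCC. The α-globin windows differ from each other at 6 of 150 bases, whereas Hbb and Hba-a1, set side by side without gaps, share 31 of 150. These letters are not rare: of 33469 RefSeq windows of the same length, 23.5% hold CCAAT, 25.7% hold ATAAA and 3.9% hold CACACCC. Of the 10 listed genes, 8 had a window in the RefSeq table. The only one of these with AGATAA, the core letters bound by GATA factors (5.96% of all windows), was Alas2, at -136.

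Hbb (NM_033234) encodes the β chain of adult hemoglobin. Its intensity was 1179 and 1484 in the control rats and 3337 and 2704 in the MSCT rats, given throughout in the order of replicates 1 and 2. Both MSCT arrays lay above both control arrays, with a gap between the groups wider than that within either. On the log2 scale the control rats had a mean of 10.37 ± 0.23 (SD, n = 2) and the MSCT rats one of 11.55 ± 0.21 (SD, n = 2). The difference was 1.18 (standard error 0.24, 95% interval 0.56 to 1.81; limma unadjusted p = 0.00548, adjusted p = 0.289 over the table). Leaving out any 1 array gave values between 1.02 and 1.35, over 2-fold every time. Its adjusted p ranged from 0.0191 to 0.662 over the alternatives, and was under 0.05 only with a variance that depends on intensity (0.0191) and after the dimmer 50% of rows had been dropped (0.0365).

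The α chains of the same protein are encoded by Hba-a1 and Hba-a2, which are not among the 10 listed genes. Hba-a1 (NM_013096) was measured at 3908 and 5730 in controls, against 9413 and 8075 after MSCT. Hba-a2 (NM_001007722) was at 3859 and 5354 in the control rats and 8805 and 9332 in the MSCT rats. Control replicate 1 was the lowest array for all 3 hemoglobin genes. The log2 differences were 0.88 for Hba-a1 (standard error 0.27, limma adjusted p = 0.354) and 1.00 for Hba-a2 (standard error 0.24, limma adjusted p = 0.32). Neither exceeded 2-fold, so neither passed the screen. Hba-a1 had a limma p of 0.0791 without control replicate 1, 0.109 without MSCT replicate 1 and 0.0554 without MSCT replicate 2, and Hba-a2 one of 0.054 without MSCT replicate 2. The α-globin genes are near-identical copies and how much signal their probes share cannot be read from the deposited values.

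A further β-globin row, Hbb-b1 (NM_198776), was dim, at 46.9 and 274.3 in controls, against 355.7 and 333.3 after MSCT. Its groups did not overlap, but the gap between the control arrays was wider than that from control replicate 2 to either MSCT array (3.04-fold, 95% interval of the log2 difference -0.73 to 3.93). The list of hemoglobin and red cell genes beside Hbb has 32 symbols, of which 18 had a row and 12 of these were blank on all 4 arrays. Of the 6 measured, 5 were higher in the MSCT group, 2 of them (Hba-a1 and Hba-a2) with an unadjusted p under 0.05 by limma, beside 4.8% of all rows in that direction. By the methods' t-test neither passed, with a p of 0.0974 for Hba-a1 and 0.0534 for Hba-a2. The median difference was 0.51, against -0.02 over all rows. Red cell membrane and metabolism genes gave smaller values. Gypc (glycophorin C) differed by -0.15, Sptb (β-spectrin) by 0.14, with control arrays at 65.3 and 325.6, and Bpgm (bisphosphoglycerate mutase) by 0.05. Of 10 markers of red cells and their precursors, 5 had a row (among them Slc4a1, Gata1 and Rhag), and every one of these was blank on all 4 arrays. In pieces of whole tissue, a different number of cells of a type and a different amount of RNA per cell cannot be told apart.

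**Figure D1:**
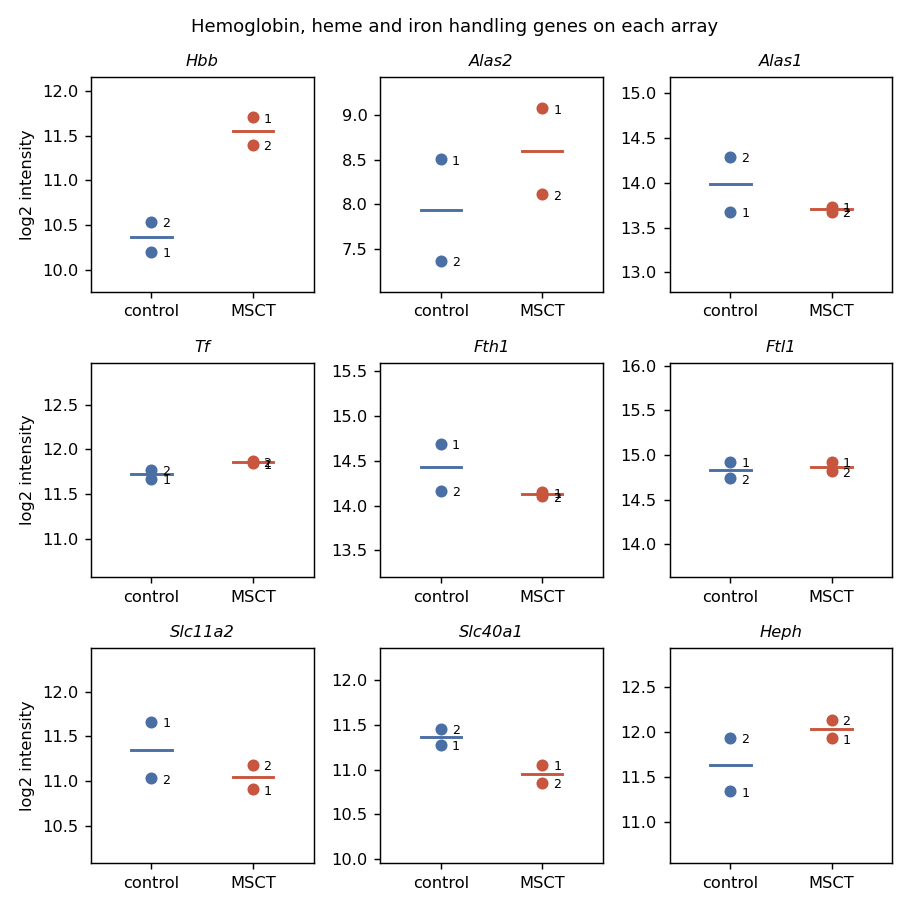
Log2 intensity (vertical axis, 2.4 units in every panel) of the 9 measured genes on each array, with control rats in blue and MSCT rats in red. Each point is 1 rat numbered by replicate and each line is the group mean; Hbb has the clearest gap between groups, while the control points of Alas1, Fth1, Slc11a2 and Heph are farther apart than the MSCT points.

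Alas2 and Alas1 encode the enzyme of the first step of heme synthesis. Alas2 (NM_013197), the form of red cell precursors, was at 363.4 and 165.4 in the control rats and 539.7 and 277.1 in the MSCT rats. The groups overlapped, since control replicate 1 was above MSCT replicate 2, and replicate 1 was the higher array in both groups. The difference was 0.66 on the log2 scale (standard error 0.53, 95% interval -0.76 to 2.07, limma adjusted p = 0.649). It moved with each array left out, to 1.23 without control replicate 1, 0.0899 without control replicate 2, 0.18 without MSCT replicate 1 and 1.14 without MSCT replicate 2. Alas1 (NM_024484), the form found in most tissues, was among the brightest 2% of rows, at 13113 and 20029 in controls, against 13605 and 13068 after MSCT. Control replicate 2 was high, and the 3 other arrays lay within 0.06 of each other on the log2 scale. MSCT differed from control by -0.28 (standard error 0.27, 95% interval -1.01 to 0.45, limma adjusted p = 0.709), and without control replicate 2 it was 0.0241.

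The later enzymes and mitochondrial carriers of heme synthesis form a list of 15 genes, 11 of them measured. None had an unadjusted p under 0.05 in limma or in the methods' t-test, 8 were higher and 3 lower, and the median difference was 0.20. The largest differences were those of Tspo, a porphyrin-binding protein of the outer mitochondrial membrane, and Cpox, at 0.47 each. Cpox (coproporphyrinogen oxidase) was at 1855 and 2809 in the control rats and 3066 and 3278 in the MSCT rats. Of the other enzymes, Alad (the second step) differed by 0.22 and Uros by 0.14.

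Heme is opened by heme oxygenase, and biliverdin reductase turns the product into bilirubin. Hmox1, the inducible heme oxygenase, was at 650.2 and 799.5 in controls, against 858.8 and 846.6 after MSCT, a log2 difference of 0.24 (95% interval -0.31 to 0.79). Hmox2, the constitutive form, differed by 0.07 and Blvra, a biliverdin reductase, by 0.47. The plasma scavengers of free hemoglobin and heme, Hp (haptoglobin) and Hpx (hemopexin), differed by 0.19 and by less than 0.01, the latter with control arrays at 499.5 and 1732. Slc46a1, which carries heme and folate into epithelial cells, was at 1306 and 1087 in the control rats and 445.4 and 911.9 in the MSCT rats, a difference of -0.90 (95% interval -1.97 to 0.16). None of the 9 measured genes of this list had an unadjusted p under 0.05, in limma or in the methods' t-test.

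Ferritin stores iron in a shell of heavy and light chains. Fth1 (NM_012848), the heavy chain, which oxidizes iron for storage, was at 26452 and 18395 in controls, against 18136 and 17609 after MSCT. The groups did not overlap, but control replicate 2 lay just above the MSCT arrays and control replicate 1 alone was high. The difference was -0.30 (standard error 0.25, 95% interval -0.98 to 0.37, limma adjusted p = 0.658), and -0.0417 without control replicate 1. Ftl1 (NM_022500), the light chain, was at 31109 and 27338 in the control rats and 31062 and 28906 in the MSCT rats. Its 4 arrays spanned 0.19 on the log2 scale, the narrowest range of the 9 members, and the difference was 0.04 (standard error 0.19, 95% interval -0.48 to 0.56, limma adjusted p = 0.95). Both rows were in the brightest 1% of the table. Ncoa4, the receptor that delivers ferritin for breakdown, was at 1466 and 887 in controls, against 778.4 and 720.8 after MSCT, with control replicate 1 again the highest array.

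Slc40a1 (NM_133315), ferroportin, the exporter of iron from enterocytes and macrophages, was at 2488 and 2819 in the control rats and 2132 and 1853 in the MSCT rats. Both MSCT arrays lay below both control arrays. The log2 difference was -0.41 (standard error 0.20, 95% interval -0.95 to 0.12; limma unadjusted p = 0.102, adjusted p = 0.5), and between -0.52 and -0.31 with each array left out. Heph (NM_133304), the ferroxidase that works beside ferroportin, was at 2587 and 3925 in controls, against 3901 and 4511 after MSCT. Control replicate 2 was level with MSCT replicate 1, and control replicate 1 alone was low. The difference was 0.40 (standard error 0.28, 95% interval -0.35 to 1.14, limma adjusted p = 0.609), and 0.10 without control replicate 1.

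Slc11a2 (NM_013173), the importer DMT1, was at 3241 and 2093 in the control rats and 1918 and 2326 in the MSCT rats. The groups overlapped, with control replicate 1 above the 3 other arrays. The difference was -0.30 (standard error 0.29, 95% interval -1.08 to 0.48, limma adjusted p = 0.708), and 0.0128 without control replicate 1. Tf (NM_001013110), the plasma carrier transferrin, was at 3259 and 3490 in controls, against 3680 and 3738 after MSCT. Its groups did not overlap, yet the whole range was 0.20 on the log2 scale and the difference 0.14 (standard error 0.18, 95% interval -0.35 to 0.63, limma adjusted p = 0.785).

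In total, the groups did not overlap in 4 of 9 members (Hbb and Tf higher, Slc40a1 and Fth1 lower in the MSCT group), beside 45.8% of all rows (21.3% higher and 24.5% lower). The control arrays were more than 0.5 apart on the log2 scale in 5 of 9 members (Alas2, Alas1, Fth1, Slc11a2 and Heph), against 30.3% of all rows, and the MSCT arrays in 1 of 9 (Alas2), against 24.2%. For Fth1, Slc11a2 and Heph control replicate 1 was the array that stood off, and for Alas1 control replicate 2. The interval of each of the 8 members other than Hbb held 0. For Tf, Fth1, Ftl1 and Slc40a1 the interval lay inside 2-fold in both directions, and for Alas2, Alas1, Slc11a2 and Heph a difference of 2-fold in 1 direction was within it.

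**Figure D2:**
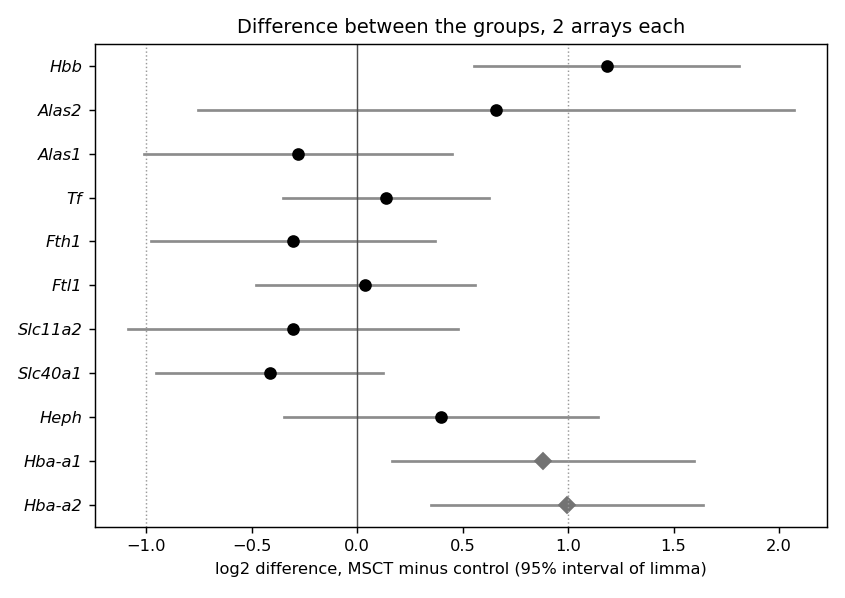
Log2 difference between MSCT and control arrays (horizontal axis) with the 95% interval of limma for the 9 members (black circles) and for Hba-a1 and Hba-a2 (grey diamonds); dotted lines mark 2-fold. The intervals of Hbb (0.56 to 1.81), Hba-a1 and Hba-a2 lie above 0, and those of the other genes hold 0.

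**Figure D3:**
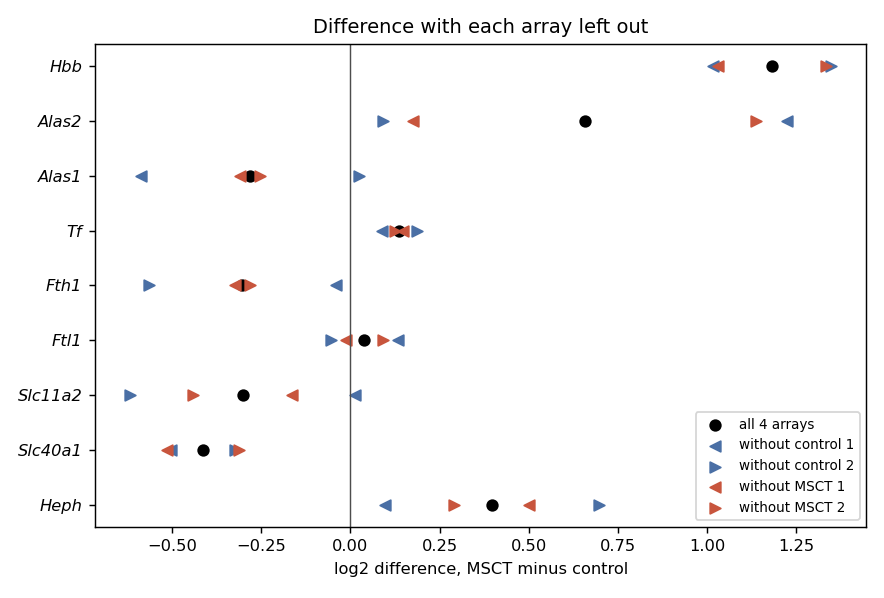
Log2 difference of each member (horizontal axis) with all 4 arrays (black) and with 1 array left out (blue for a control array, red for an MSCT array). Hbb stays between 1.02 and 1.35, while Alas1, Ftl1 and Slc11a2 cross 0.

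The other genes of iron handling were taken as lists of transport, storage and regulation. Of 15 iron transport genes, 8 were measured. Of these, 3 were higher with an unadjusted p under 0.05 by limma, beside 4.8% of all rows, and 1 was lower, beside 7.17%. By the methods' t-test 3 of the 8 had one in either direction, beside 9.66% of all rows. Slc39a8 and Steap4, both higher by limma, were not among them. The largest difference was that of Lcn2 (lipocalin 2, a secreted protein that binds bacterial iron carriers), at 181.4 and 175.7 in the control rats and 802.2 and 576.1 in the MSCT rats. Both MSCT arrays lay far above both control arrays (log2 difference 1.93, standard error 0.24, limma adjusted p = 0.257). Slc39a8 (ZIP8, an importer of zinc, manganese and iron) was at 354.6 and 670.6 in controls, against 1237 and 1341 after MSCT, a difference of 1.40 (standard error 0.36, limma adjusted p = 0.324).

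The STEAP proteins reduce iron and copper for uptake. Steap3, the reductase of the transferrin cycle, was at 1237 and 1552 in the control rats and 630.2 and 659.9 in the MSCT rats. It was 2.15-fold lower in the MSCT group, with no overlap (log2 difference -1.10, standard error 0.21, limma adjusted p = 0.285). Steap4 went the other way at a far dimmer level, with 110.7 and 84.4 in controls, against 241 and 141.7 after MSCT. Its difference of 0.94 had an unadjusted limma p of 0.0456, but a p of 0.162 by the methods' t-test. With 1 array left out, the difference ranged from 0.55 (without MSCT replicate 1) to 1.32 (without MSCT replicate 2). Cybrd1, the duodenal ferric reductase, was at 683.5 and 783.8 in the control rats and 966.8 and 1207 in the MSCT rats (difference 0.56, 95% interval -0.03 to 1.15). Cp (ceruloplasmin, the plasma relative of hephaestin) differed by 0.45 and Slc11a1, the iron transporter of phagosomes, by 0.09, and for each MSCT replicate 2 was the highest array.

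Iron regulation was represented by 8 measured genes of 14. Bmp6, the signal that induces hepcidin in the liver, was at 1054 and 667.5 in controls, against 2149 and 1764 after MSCT. Both MSCT arrays lay above both control arrays (log2 difference 1.21, standard error 0.30, limma adjusted p = 0.324), and the limma p was 0.0538 without MSCT replicate 1. Epas1 (HIF-2α, a factor that raises iron absorption genes in enterocytes) was at 8000 and 9658 in the control rats and 5821 and 6029 in the MSCT rats. Its difference of -0.57 had an unadjusted limma p of 0.0428, and p was 0.131 without control replicate 2, 0.169 without MSCT replicate 1 and 0.14 without MSCT replicate 2. The iron regulatory proteins that bind ferritin and transferrin receptor mRNA, Aco1 and Ireb2, differed by 0.48 (95% interval -0.06 to 1.03) and 0.09. Hamp, which encodes hepcidin, had 1 very low array, with 77.5 and 402.3 in controls, against 552.3 and 504.3 after MSCT (difference 1.58, 95% interval -0.60 to 3.76, and 0.39 without control replicate 1).

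Over the 7 lists of other genes, 52 of 113 were measured, 12 were blank and 49 had no row by name. Of the 52, 6 were higher with an unadjusted p under 0.05 by limma, beside 4.8% of all rows, and 2 were lower, beside 7.17%. The 8 together were near the 12% of all rows. The screen was passed by 3 in the higher direction (Lcn2, Slc39a8 and Bmp6), beside 2.12% of all rows, and by 1 in the lower (Steap3), beside 2.51%. With the methods' t-test, Slc39a8 (p of 0.0941) and Bmp6 (p of 0.0772) no longer passed it, while Lcn2 and Steap3 did. Slc39a8 was under 2-fold without control replicate 1 (a log2 difference of 0.94), and so were Bmp6 (0.89) and Steap3 (-0.94) without control replicate 2. Higher in the MSCT group were 34 of the 52 (65.4%), against 48% of all rows, and the median difference was 0.12, against -0.02. Leaving out 1 array leaves 1 rat in a group, so no counts are given for those fits.

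Macrophages both recycle heme iron and respond to inflammation, and their markers were read on the same arrays. Of 9 measured markers, 8 were higher in the MSCT group with an unadjusted p under 0.05 by limma, beside 4.8% of all rows, and 6 of 9 had one under 0.05 by the methods' t-test, beside 9.66%. Both MSCT arrays lay above both control arrays for these 8 markers, as for 21.3% of all rows. The median difference was 1.00, and the summed intensity of the list was 17521 and 18975 in the control rats and 25207 and 29538 in the MSCT rats. Cd68, a lysosomal marker of macrophages, was at 1023 and 1147 in controls, against 2389 and 2942 after MSCT, C1qb (a complement subunit made by macrophages) differed by 1.61, and Cd14 by -0.04. Their part in the differences of Slc40a1, Hbb, Lcn2 and Slc39a8 was not tested. Markers of smooth muscle (5 measured, differences from -0.04 to 0.08) and of colon epithelium (7 measured, from -0.05 to 0.48) were above the median row. Of these 12, 0 had an unadjusted p under 0.05 by limma, beside 12% of all rows. By the methods' t-test 2 did (Krt18 and Krt20), beside 9.66%. Of endothelial markers, 3 were measured and all were higher in the MSCT group, as were 48% of all rows. Pecam1 (0.29) and Kdr (0.05) had overlapping groups and no unadjusted p under 0.05 in either test. Eng (endoglin) was at 216.8 and 207.7 in controls, against 366.2 and 401.2 after MSCT, a log2 difference of 0.85 (limma adjusted p = 0.298). Eng alone had an unadjusted p under 0.05, beside 4.8% of all rows in that direction by limma and 9.66% in either direction by the methods' t-test. The 4 measured markers of glia differed by between -0.60 (Sox10) and 1.06 (Gfap), none with an unadjusted p under 0.05 in limma or in the methods' t-test. The part of endothelial cells and glia in the results was not tested.

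**Figure D4:**
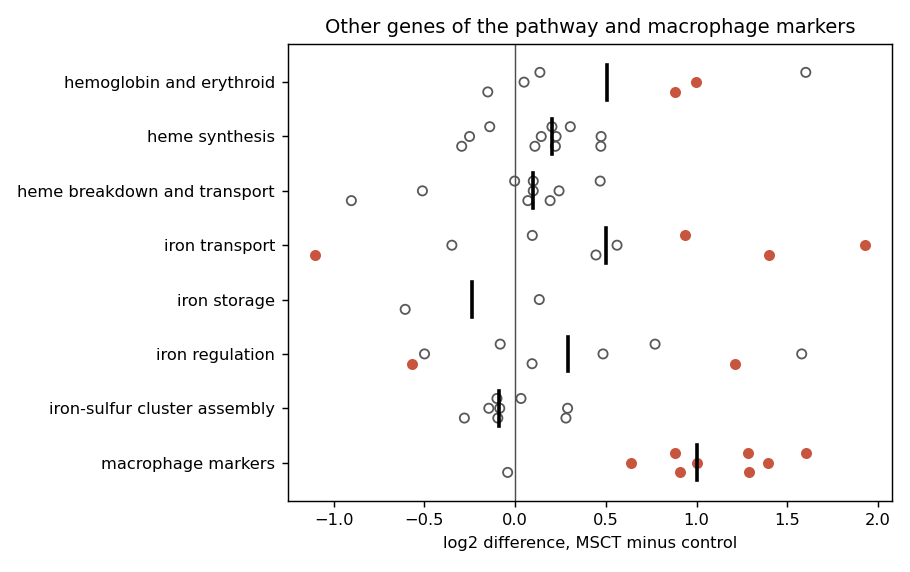
Log2 difference between MSCT and control arrays (horizontal axis) of each measured gene in the 7 pathway lists and in the macrophage marker list. Each circle is a gene, filled red where the unadjusted limma p was under 0.05, and each black bar is the list's median, which is 1.00 for macrophage markers and between -0.24 and 0.51 for the pathway lists.

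For the 3 members with the widest range over the 4 arrays, the named genes with the most similar course were sought among 6962 others, as the smallest root mean square difference of log2 values centered on their mean. With 4 arrays, many genes follow any given course. Closest to Hbb were Egf (0.07), Cmtm8 (0.07) and Lrrc26 (0.08). Hba-a1 and Hba-a2 held places 47 and 49 (0.17 each), whereas the dim β-globin row Hbb-b1 held place 5599 (0.82). Closest to Alas2 were Acan, Rhoh and Or8b101b (0.08 to 0.11), and closest to Heph were Usp2, Zc3h8 and Zfp672 (0.02 to 0.03).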

How the data were processed

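Colon RNA of 2 control and 2 MSCT rats was reverse transcribed, labeled with Cy3 and put on one-color NimbleGen chips, 1 per rat. The values the authors deposited are linear intensity, 1 per RefSeq transcript and chip, from GenePix scans read in NimbleScan. RMA is named in the submitters' processing notes without its role; the background correction, the scaling and the rule for blank rows are not given in the sources used here. Of 26420 rows, 18350 were filled for every chip and 8070 were blank for every chip, and array medians lay between 848 and 893. No depth applies to arrays, and their number limits the precision.

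Intensities were taken as log2 values without pseudocount, scaling or filter. The groups were compared with lmFit and eBayes of limma (version 3.58.1, R 4.3.3) over all 18350 rows, with Benjamini-Hochberg adjustment over the same rows. The estimates, unadjusted p and intervals of the fit were checked on data simulated under the fit's own assumptions. The adjusted p was not checked there, nor was a variance that depends on intensity. Symbols came from RefSeq's GRCr8 gene table (7062 measured rows), and where a gene had several rows the brightest on average was kept. Named are the 10 listed genes, the genes of each list past the screen or, where none was, with an unadjusted p under 0.05 (5 at most in each direction), key genes of heme and iron handling, up to 3 markers of a list, and the 3 genes most like the 3 members of widest range. Also named, after their values were seen, are Hbb-b1, Gypc, Sptb, Bpgm, Cpox, Tspo, Alad, Uros, Hmox2, Blvra, Slc46a1, Ncoa4, Steap4, Epas1, the named iron-sulfur genes and the blank markers. The members and lists were chosen with earlier results of these data known. Alternatives were the methods' t-test (one-way analysis of variance of 2 groups), quantile normalization, equal array medians, a pseudocount of 50, leaving out the lower 25% or 50% of rows, an intensity-dependent variance (trend and robust), weights per array, a block for the replicate number, each array left out, the mean of a gene's rows, fold changes of linear means and a fold limit of 1.5. Python 3.11.15, pandas 2.3.3 and matplotlib 3.10.9 were used for names, sequences and figures.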

Additional observations from a re-analysis of the deposited data

How the results depend on the processing

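Hbb kept its direction under all alternatives run, and passed the study's screen under all that kept 2 arrays a group. Several alternatives could not change a direction. Dropping dim rows, the intensity-dependent variance, array weights, the replicate block and the methods' t-test left each difference as it was and changed only its p. The mean of a gene's rows repeated the main fit for the members, which had 1 row each. Of 125 values of the 9 members under alternatives, 117 kept their direction and their side of an unadjusted p of 0.05, 3 passed it newly and 5 changed sign. Slc40a1 (-0.41) passed it with an intensity-dependent variance (a limma p of 0.0438) and without the lower 50% of rows (a limma p of 0.0424). With these 2 settings, 2 members passed in place of 1, while the share of all rows that passed went from 12% to 14.7% and 18.9%. Alas2 was among the lower 50% of rows, so it was not tested in the second of these settings. Ftl1 turned to -0.0104 after quantile normalization. With 1 array left out, Alas1 ranged from -0.59 to 0.0241 (its sign changed without control replicate 2), Slc11a2 from -0.62 to 0.0128 (without control replicate 1) and Ftl1 from -0.0541 to 0.13 (without control replicate 2 or MSCT replicate 1). Among other genes, Hpx was 0.0259 after quantile normalization, 0.0354 with equal array medians and -0.90 to 0.89 with 1 array left out, Slc11a1 -0.48 to 0.67 and Cp -0.10 to 0.99.

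Of the 52 other pathway genes, 8 had an unadjusted p under 0.05 in the main fit, beside 12% of all rows. With the intensity-dependent variance 14 of 52 did, a larger share than the 14.7% of all rows. By the methods' t-test 5 of 52 did, beside 9.66% of all rows. The screen was passed by 4 of 52 in the main fit, beside 4.63% of all rows, and by 2 of 52 with the methods' t-test, beside 2.11%. Without the lower 50% of rows it was passed by 2 (Bmp6 and Steap3). Lcn2 and Slc39a8 were among the rows left out, so they were not tested in that setting and did not fail the screen there. With a fold limit of 1.5 it was passed by 7. For neither setting was the share of all rows past the screen computed. Over all rows, 387 passed an adjusted p of 0.05 with an intensity-dependent variance, 247 without the lower 50% and 4 without the lower 25%, in place of 0. Beside Hbb, these included Hba-a2 (0.0215), Hba-a1 (0.0491), Lcn2 (0.0382) and Bmp6 (0.047) with an intensity-dependent variance, and Steap3 (0.0329) without the lower 50%. No alternative but these 2 gave Hbb or any of the 5 an adjusted p under 0.05. Where dim rows were left out, fewer rows were tested and the standard error of Hbb also went from 0.24 to 0.19. The cause of these moves was not tested.

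The replicate numbers are shared by the groups, but no source says that they pair the rats, and same-numbered arrays deviated together with r = 0.23 across rows. With the replicate number as a block, 2 members had an unadjusted p under 0.05 by limma, Hbb and Alas2 (0.66, with a p of 0.0311), beside 14.6% of all rows in that fit, and no member passed an adjusted p of 0.05.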

Other observations

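Iron-sulfur clusters, cofactors of respiratory and DNA repair enzymes, are a further use of the cell's iron. Of 17 listed genes that build them, 8 were measured, 3 higher and 5 lower in the MSCT group, with a median log2 difference of -0.09 and a range from -0.28 (Nubp1) to 0.29 (Ciao1). None had an unadjusted p under 0.05 by limma, beside 12% of all rows, and 1 did by the methods' t-test (Ciapin1, which differed by -0.10), beside 9.66%. Nfs1, the enzyme that supplies the sulfur, was at 3944 and 3229 in the control rats and 3414 and 3051 in the MSCT rats.

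Plasma proteins best known from the liver, the source of most transferrin, hepcidin and hemopexin, were read for comparison with Tf. Of 9 measured genes, 0 had an unadjusted p under 0.05, in limma or in the methods' t-test, and the median log2 difference was 0.07. Control replicate 1 was the lowest array in 5 of the 9, against 29.2% of all rows. Apoh was at 204.8 on that array and between 629.2 and 890.5 on the others, and Ttr at 285 and between 934.6 and 998.1, and that array was also the lowest for Hamp and Hbb-b1. These genes were named after their values were seen, and no cause was tested.

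Cdk1, which drives entry into mitosis, was 2.35-fold lower in the MSCT group, at 863.8 and 855.9 in controls, against 373.4 and 357.6 after MSCT (limma adjusted p = 0.26). The other 4 measured genes of cell division differed by between -0.47 (Tyms) and 0.18 (Pcna).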
